A study of Mus musculus with 5 samples.

Results

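The insulin-like growth factor (IGF) axis genes of mouse mammary epithelial cells were examined at the RNA level: the IGF-binding proteins, the IGF receptors and the insulin receptor substrates. The set of 10 genes was chosen as members of this axis, and Igfbp3 was selected on its rise in sgMef2d against sgControl cells, so its change is a description without a test. Of the 10 genes, 7 were among the 12934 genes listed in the count table, and all 7 were among the 12483 genes tested: Igfbp3, Igfbp4, Igfbp7, Igf1r, Igf2r, Irs1 and Irs2. Igfbp2, Igfbp5 and Igfbp6 were not listed and were not analysed here.

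EpH4 is an immortalized epithelial line from the BALB/c mouse mammary gland. All libraries came from EpH4 cells that stably expressed Cas9 after selection with blasticidin. The cells carried either a control sgRNA (sgControl, 3 libraries) or an sgRNA against Mef2d (sgMef2d, 2 libraries) delivered by lentivirus, and were taken as stable clones under puromycin. The labels do not say which of the study's sgRNAs a library carries or whether the libraries come from separate cultures, so p-values measure the spread between these libraries, which may be technical. The comparison asked which transcripts depend on MEF2D, a transcription factor of the MEF2 family.

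IGF1 and IGF2 are secreted growth factors that bind the receptor tyrosine kinase IGF1R. The activated receptor phosphorylates IRS1 and IRS2, which recruit PI3-kinase and so switch on AKT. The binding proteins hold IGFs outside the cell and set how much ligand reaches the receptor, while IGF2R carries IGF2 to lysosomes and removes it. In the mammary gland this axis is known for its part in ductal growth and in cell survival.

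The libraries held between 13601145 and 20498563 counts over the listed genes, and 3 counts corresponded to between 0.146 and 0.220 CPM, the count scaled to the TMM-adjusted library total. Over all genes, sgControl replicate 1 stood apart from the other sgControl libraries, with a chi-square per degree of freedom of 10.6 and 13.6 against them, near the 12.1 and 12.8 against the sgMef2d libraries, where sgControl replicates 2 and 3 gave 1.99 and both sgMef2d libraries 2.03. By the correlation between libraries, sgControl replicate 1 was still closer to the other sgControl libraries (0.992 and 0.991) than to the sgMef2d libraries (0.986 and 0.985). Between sgControl replicates 2 and 3 the correlation was 0.994. For genes named with a test, a call or direction that changed without sgControl replicate 1 is given both ways. Mef2d itself had a log2 fold change of -0.12 (SE 0.080, edgeR quasi-likelihood test, adjusted p = 0.400), with 64.3, 76.9 and 71.5 CPM in sgControl and 64.2 and 65.8 CPM in sgMef2d, and leaving out sgControl replicate 1 gave -0.19 with an adjusted p of 0.00550. Counts per gene show neither edits nor protein, so they do not check the labels. The study reported from an immunoblot that its knockout EpH4 cells lacked MEF2D protein. Of 10 epithelial markers 9 were listed, and their summed level was 4125 to 4330 CPM in sgControl and 3935 to 4102 CPM in sgMef2d. None of 4 endothelial markers was listed, while 5 of 7 fibroblast markers were (641 to 765 CPM in sgControl, 603 to 645 CPM in sgMef2d) and 4 of 6 myoepithelial markers were (482 to 491 and 947 to 1005 CPM). Most of the myoepithelial sum was the keratin Krt14, which was higher past the threshold, as were Krt5 and Trp63, while Acta2, the smooth muscle actin of the contractile apparatus, was lower (18.6 against 10.6 CPM on average, edgeR quasi-likelihood test, adjusted p = 0.00237). Of the immune, adipocyte and muscle markers 1 each was listed, at no more than 3.80 CPM. In the other lists the fibroblast collagen Col1a2 was lower past the threshold (425 against 291 CPM on average, adjusted p = 2.32e-04), as were Krt18 (adjusted p = 0.0207) and Fabp4 (adjusted p = 0.0231), while Dcn (adjusted p = 0.0203) and Cldn4 (adjusted p = 0.0407) were higher. The calls of Krt18, Fabp4, Dcn and Cldn4 were lost without either sgMef2d library, and that of Acta2 without sgMef2d replicate 1 (log2 fold change -0.68). Without sgControl replicate 2, those of Krt18 (same test, adjusted p = 0.0647), Dcn (0.0534) and Cldn4 (0.135) were lost too. Cldn4 also lost its call without sgControl replicate 3 (0.112) and with a replicate block (0.0905), and kept it in 9 of 15 alternatives. The part of these cell type markers in the results was not tested, and in bulk RNA fewer cells of a type and less RNA per cell cannot be told apart.

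The promoters of Igfbp3 and Igfbp7 are shown first, because these genes had the highest and the lowest log2 fold change of the 7 listed members. RefSeq windows (GRCm38.p6) were matched for 7 of the 7 genes, and the 250 bases before the annotated start are printed 5′ to 3′ on the gene's strand, with TATATA and GGGCGG in capitals, the latter also where it lies on the other strand as CCGCCC.
Igfbp3 (chr11:7213924-7214173, minus strand): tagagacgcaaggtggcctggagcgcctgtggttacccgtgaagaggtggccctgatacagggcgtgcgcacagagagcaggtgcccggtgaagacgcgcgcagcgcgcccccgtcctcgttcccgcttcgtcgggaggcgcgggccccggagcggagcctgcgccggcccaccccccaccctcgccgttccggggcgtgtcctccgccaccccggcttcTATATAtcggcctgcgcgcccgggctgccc
Igfbp7 (chr5:77408046-77408295, minus strand): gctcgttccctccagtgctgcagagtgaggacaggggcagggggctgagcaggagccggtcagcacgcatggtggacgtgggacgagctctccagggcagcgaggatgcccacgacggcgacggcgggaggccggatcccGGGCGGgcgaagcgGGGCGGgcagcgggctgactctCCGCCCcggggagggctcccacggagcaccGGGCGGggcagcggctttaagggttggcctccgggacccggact
Both windows are rich in G and C, at 73.2% for Igfbp3 and 74% for Igfbp7. The Igfbp3 window holds TATATA, which 5.25% of all 32851 mouse promoter windows of this length hold on either strand, and no GGGCGG. The Igfbp7 window holds GGGCGG 4 times and no TATATA. The motif GGGCGG was present in 5 of the 7 members' windows (Igfbp7, Igf1r, Igf2r, Irs1 and Irs2) and in 32.7% of all windows. TATAAA was present in 1 of the 7 (Igfbp4) and in 12.4% of all windows, and GTAAACA and TGANTCA in 0 of the 7. The motifs were chosen after these windows had been read, so the counts beside the shares describe the windows and test nothing. A match to the MEF2 element was found in 0 of the 7 members' windows and in 2.92% of all windows, which says only that these letters are not in these windows.

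Igfbp3 encodes the main carrier of IGFs in serum, and it lies on chromosome 11 (ENSMUSG00000020427.11, chr11:7206086-7213923, as all positions here in GRCm38). Its level was 44.2, 40.1 and 37.5 CPM in sgControl libraries 1 to 3 and 82.7 and 92.8 CPM in sgMef2d libraries 1 and 2. Both sgMef2d libraries lay well above all sgControl libraries, at 2.16 times the sgControl mean. The fitted log2 fold change was 1.11 (SE 0.083), and without single libraries it stayed between 1.02 and 1.18. These are the values for which Igfbp3 was chosen. Of the listed myoepithelial markers, 3 were higher and Acta2 was lower in sgMef2d, as given above, and their part in the level of Igfbp3 was not tested. The nearest protein-coding gene, Igfbp1, lies 3539 bases away on chromosome 11 and was not listed, and the next gene on the other side, Tns3, which encodes a focal adhesion protein, had a log2 fold change of -0.17 (edgeR quasi-likelihood test, adjusted p = 0.249), which was -0.25 and past the threshold without sgControl replicate 1 (adjusted p = 1.13e-08).

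Of the 6 members other than Igfbp3, 1 passed the threshold of an adjusted p below 0.05 in edgeR's quasi-likelihood test, where 7.95% of all genes tested did (4.28% lower, 3.67% higher in sgMef2d). The groups did not overlap in 3 of the 6, which was the case for 41.1% of all genes tested. The member past the threshold was Igfbp7, which encodes a secreted protein of low affinity for IGFs that is also found in the matrix around vessels (ENSMUSG00000036256.13, chr5:77349240-77408041). Igfbp7 reached 453, 411 and 400 CPM in sgControl libraries 1 to 3 and 289 and 302 CPM in sgMef2d libraries 1 and 2. Every sgMef2d library lay below every sgControl library, and the distance between the groups was wider than the range within either. Igfbp7 thus fell from a mean of 421 ± 28.2 CPM (SD, n = 3) to one of 296 ± 8.71 CPM (SD, n = 2). Its log2 fold change was -0.51 (SE 0.067, 95% interval -0.66 to -0.37, edgeR quasi-likelihood test, adjusted p = 8.75e-04). The call was kept in all 15 alternatives run for Igfbp7, with adjusted p values up to 0.0396. Of its exonic bases, 85 overlap Polr2b on the opposite strand, and the sources used here do not say whether the counting used strand. Polr2b, a subunit of RNA polymerase, had a log2 fold change of 0.10 (same test, adjusted p = 0.323), or 0.12 without sgControl replicate 1 (adjusted p = 0.0196).

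Igfbp4, which encodes a secreted inhibitor of IGF action that the protease PAPP-A cleaves (ENSMUSG00000017493.12, chr11:99041244-99054392), had the lowest level of the 7 listed members. It had 21, 13 and 9 counts in the sgControl libraries and 24 and 28 counts in the sgMef2d libraries. In CPM these were 1.02, 0.922 and 0.660 against 1.41 and 1.89, so the groups did not overlap. The log2 fold change was 0.87 (SE 0.33, 95% interval 0.14 to 1.604), and it did not pass the threshold (edgeR quasi-likelihood test, adjusted p = 0.140). Leaving out sgControl replicate 1 gave 1.03 with an adjusted p of 0.0487, the lowest over the alternatives, of which the highest was 0.627.

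**Figure D1:**
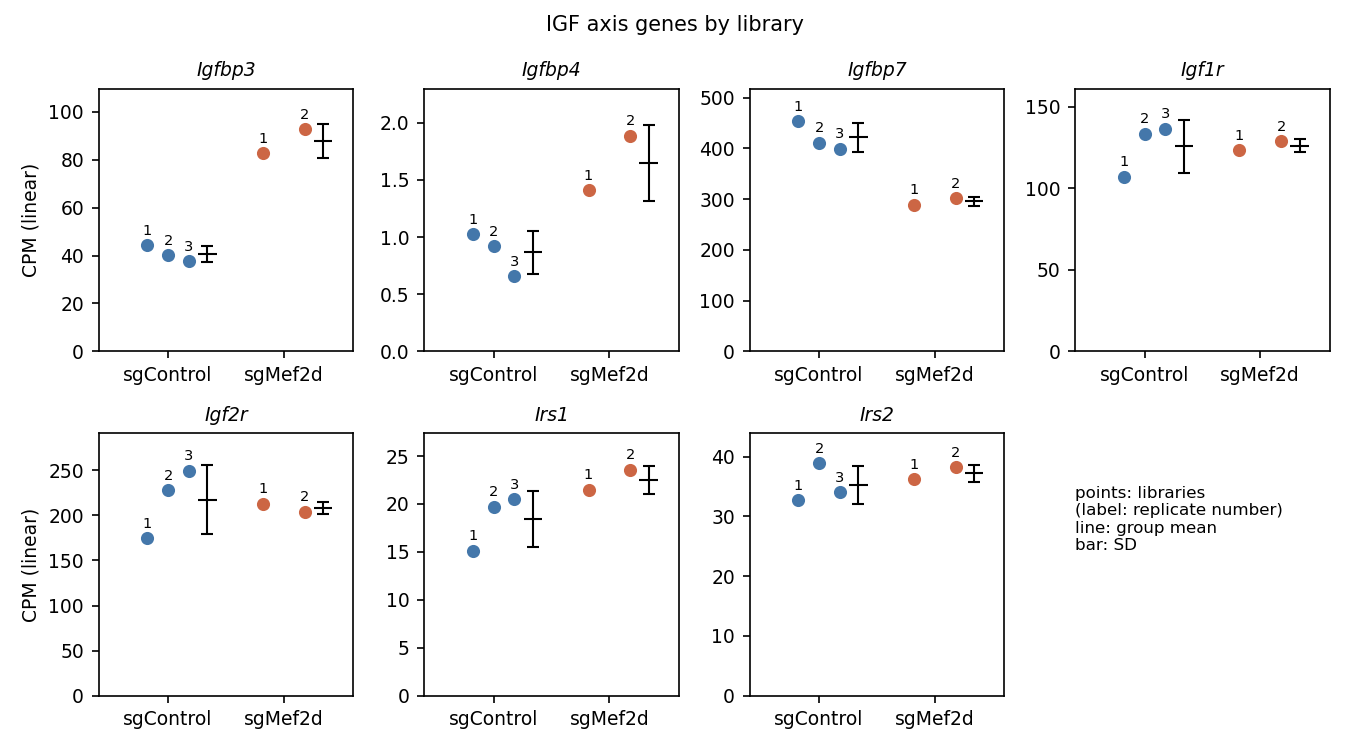
Level of each listed IGF axis gene in CPM (linear axes from 0) in the 3 sgControl and 2 sgMef2d libraries, with replicate numbers at the points and the group mean and SD beside them. The sgMef2d libraries sit above all sgControl libraries for Igfbp3, Igfbp4 and Irs1 and below them for Igfbp7, while the groups overlap for Igf1r, Igf2r and Irs2.

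The receptors showed no difference larger than the spread between libraries. Igf1r encodes the receptor through which both IGFs signal (ENSMUSG00000005533.10, chr7:67952827-68233668). It was at 107, 134 and 137 CPM in sgControl libraries 1 to 3 and at 123 and 129 CPM in sgMef2d libraries 1 and 2. The sgMef2d libraries lay between the sgControl libraries. The log2 fold change was 0.0091 (SE 0.094, 95% interval -0.20 to 0.21, edgeR quasi-likelihood test, adjusted p = 0.968), and its direction turned without sgControl replicate 1 (-0.10, adjusted p = 0.0984) and without sgMef2d replicate 2 (-0.03, adjusted p = 0.964).

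Igf2r encodes the mannose 6-phosphate receptor, which clears IGF2 (ENSMUSG00000023830.14, chr17:12682406-12769664). Its level was 175, 228 and 249 CPM in sgControl libraries 1 to 3 and 213 and 204 CPM in sgMef2d libraries 1 and 2. The low value of sgControl replicate 1 put it below both sgMef2d libraries, while the other sgControl libraries were above them. With all libraries the log2 fold change was -0.06 (SE 0.12, 95% interval -0.31 to 0.20, edgeR quasi-likelihood test, adjusted p = 0.818). Leaving out sgControl replicate 1 gave -0.19 (adjusted p = 8.70e-05), and leaving out sgControl replicate 3 gave 0.05 (adjusted p = 0.826). In the mouse, Igf2r is imprinted, and Airn is the long antisense RNA that starts within it and silences the paternal copy. Airn was listed, shares 0 exonic bases with Igf2r, and was at 2.34, 2.34 and 2.27 CPM in sgControl and 2.47 and 2.42 CPM in sgMef2d (log2 fold change 0.08, same test, adjusted p = 0.876).

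The substrates IRS1 and IRS2 link the receptor to PI3-kinase. Irs1 (ENSMUSG00000055980.2, chr1:82233101-82291416) was at 15.1, 19.7 and 20.5 CPM in sgControl libraries 1 to 3 and at 21.5 and 23.6 CPM in sgMef2d libraries 1 and 2. The sgMef2d libraries were the highest, by a margin smaller than the range within sgControl. The log2 fold change of Irs1 was 0.30 (SE 0.13, 95% interval 0.02 to 0.58) and did not pass the threshold (edgeR quasi-likelihood test, adjusted p = 0.183). Without sgControl replicate 1 it was 0.16 (adjusted p = 0.230), and with the replicate number as a block it was 0.38 and passed (adjusted p = 0.0157), although the numbers were not found to pair the libraries. Of its exonic bases, 2822 overlap a gene model on the opposite strand, Gm9747, which was not listed. Irs2 (ENSMUSG00000038894.7, chr8:10984681-11008458) was at 32.7, 38.9 and 34.1 CPM in sgControl and at 36.2 and 38.2 CPM in sgMef2d, within the sgControl range. Its log2 fold change was 0.08 (SE 0.089, 95% interval -0.11 to 0.28, same test, adjusted p = 0.628).

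The library that stood apart over all genes by chi-square, sgControl replicate 1, also differed from the other sgControl libraries among the members. In log2 CPM, sgControl replicate 1 differed from the mean of sgControl replicates 2 and 3 by -0.45 for Igf2r, -0.41 for Irs1, -0.33 for Igf1r and -0.15 for Irs2. The binding proteins differed the other way, by 0.34 for Igfbp4, 0.19 for Igfbp3 and 0.16 for Igfbp7. Over the 1597 genes tested whose exons cover at least 9000 bases, as those of Igf1r, Igf2r and Irs1 do, the median of this difference was -0.12, against 0.02 over the 10886 shorter genes. The minimum of 9000 lies just under the exon lengths of Irs1 (9144 bases) and Igf2r (9308 bases). Irs2, at 6323 bases, counts among the shorter genes. The part of length in the differences of the members was not tested. Once each library's trend with length and GC content was removed, the log2 fold changes were -0.65 for Igfbp7, 0.35 for Irs1 (edgeR quasi-likelihood test, adjusted p = 0.0588), 0.12 for Igf1r (adjusted p = 0.224) and -0.0063 for Igf2r, and no member changed its side of the threshold.

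**Figure D2:**
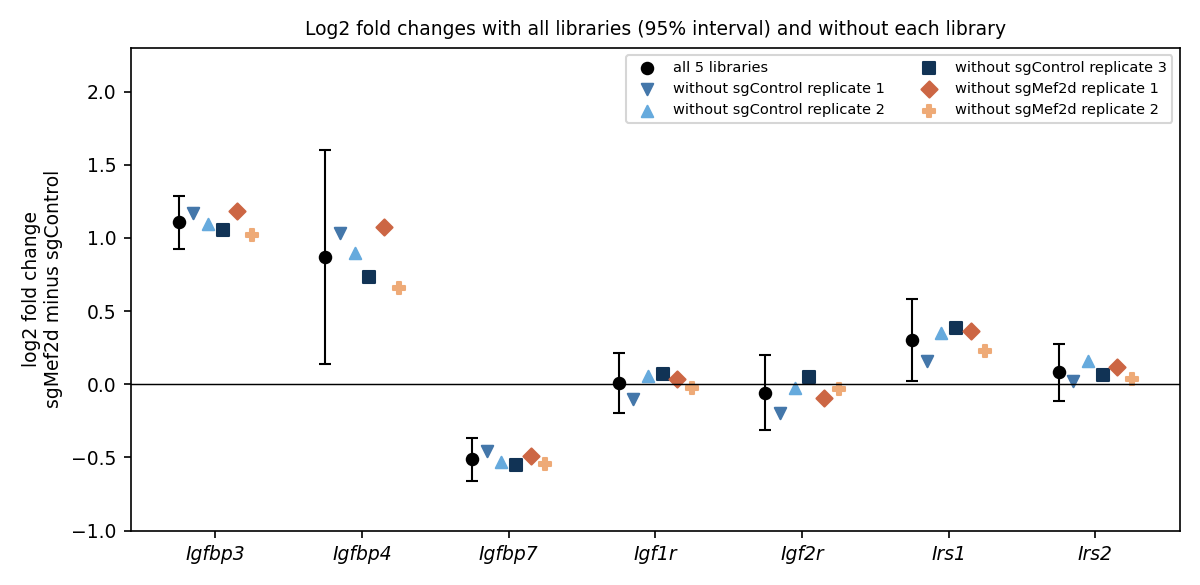
Log2 fold change (sgMef2d minus sgControl) of each listed member, with all 5 libraries (black, bars are the 95% interval of the fit) and with each library left out (coloured symbols). Igfbp3 stays between 1.02 and 1.18 and Igfbp7 below 0, while Igf1r and Igf2r lie on either side of 0 depending on the library left out.

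Levels were compared between genes per kilobase of exon (CPM per kb), since longer transcripts give more reads. In sgControl, Igfbp7 led with 349 CPM per kb, followed by Igf2r with 23.3, Igfbp3 with 12.97, Igf1r with 7.49, Irs2 with 5.57, Irs1 with 2.02 and Igfbp4 with 0.197 CPM per kb. Igfbp7 stood at percentile 99.25 of all listed genes by this measure, Igf2r at 82.1, Igfbp3 at 69.3, and Igfbp4 at 4.64. In sgMef2d the order was the same but for Igfbp3, which at 28.04 CPM per kb (percentile 85.2) lay above Igf2r at 22.4. Neighbours in the order did not overlap between libraries of the same group, although Igf1r and Irs2 in sgControl came as close as 6.38 and 6.15 CPM per kb. Taking the longest transcript as the length kept the order in both groups.

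**Figure D3:**
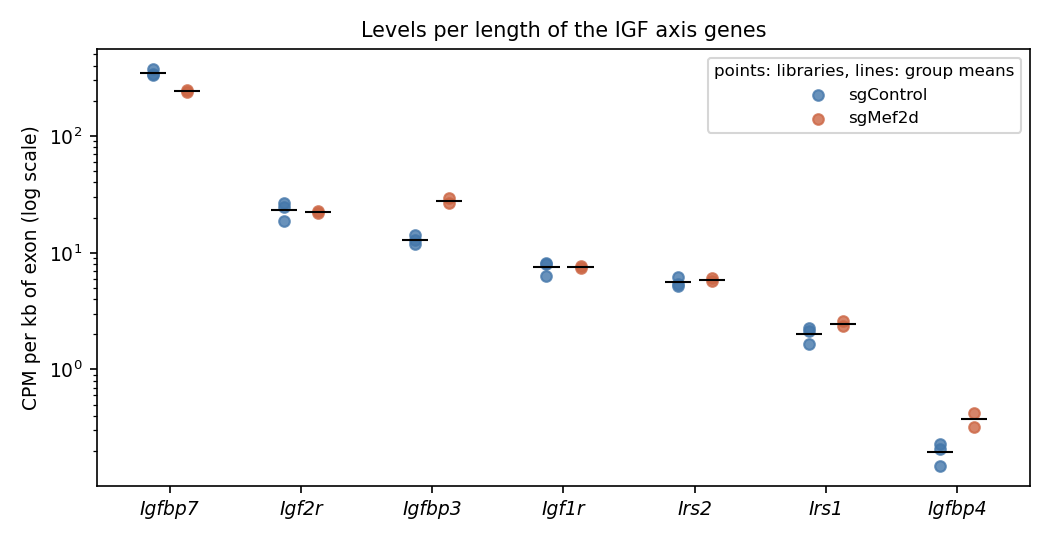
CPM per kb of exon (log axis) of the 7 listed members in each library, with lines at the group means and genes ordered by their sgControl level. Igfbp7 lies far above the others, and Igfbp3 passes Igf2r in the sgMef2d libraries.

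The summed level of Igfbp3, Igfbp4 and Igfbp7 was 389, 353 and 343 CPM per kb in sgControl libraries 1 to 3 and 266 and 280 CPM per kb in sgMef2d libraries 1 and 2. The sum was lower in both sgMef2d libraries, at 0.754 times the sgControl mean, and at 0.702 times it with Igfbp3 left out, and Igfbp7 made up 96.4% of it in sgControl and 89.6% in sgMef2d. The share of Igfbp3 in the sum was between 3.50% and 3.63% in sgControl and was 9.93% and 10.6% in sgMef2d. The ratio of Igfbp7 to Igfbp3 in CPM per kb of exon was 26.5, 26.6 and 27.6 in sgControl, against 9.05 and 8.42 in sgMef2d. The ratio depends on the length used. With the longest transcript, the means of Igfbp7 and Igfbp3 were 351 and 16.8 CPM per kb in sgControl and 246 and 36.3 in sgMef2d, which gives lower ratios in both groups. The shares and ratios with Igfbp3 use the value for which it was chosen, so a difference in them was fixed by that choice, and they carry no test. The ratio of Igf2r to Igf1r was 3.11 ± 0.179 (SD, n = 3) and 2.98 ± 0.185 (SD, n = 2), and that of Irs2 to Irs1 was 2.79 ± 0.368 and 2.39 ± 0.0635, with overlapping libraries in both cases.

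**Figure D4:**
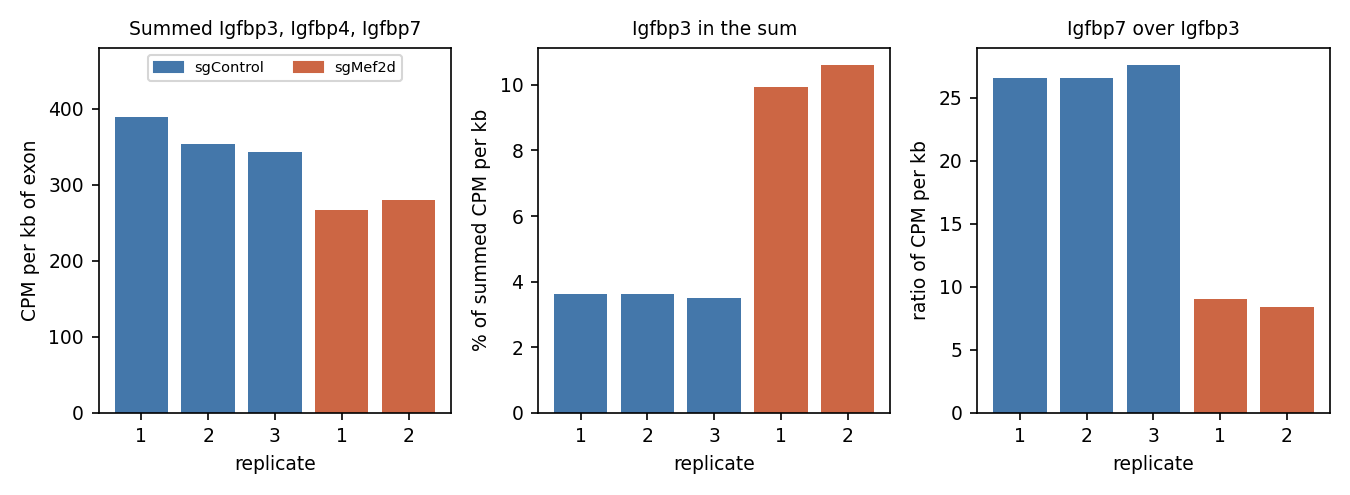
Summed CPM per kb of the 3 listed binding proteins, the share of Igfbp3 in that sum, and the ratio of Igfbp7 to Igfbp3, as bars from 0 for each library (numbers are replicates). The sgMef2d libraries have a lower sum, a share of Igfbp3 near 10% and a ratio near 9.

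The genes whose level over the 5 libraries ran closest to that of Igfbp3, by the distance between centred log2 CPM profiles, were Apol9a, Krt14, Ak1, Cxcl3 and Cxcl5. Krt14, which is also on the myoepithelial list, encodes a basal keratin, Ak1 an adenylate kinase, and Cxcl3 and Cxcl5 chemokines, while Apol9a has a near-identical paralog with which its reads could be split. Krt14 went from 439 to 902 CPM between the group means and Cxcl5 from 78.6 to 166 CPM. Their Pearson correlations with Igfbp3 lay between 0.974 and 0.998 over 5 libraries that share 1 difference between the groups, which sets most of these values.

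Among 116 other genes of the pathway, 95 were tested, and 19 of them (20%) passed the threshold of the edgeR test, with 8 higher in sgMef2d and 11 lower, beside 7.95% of all genes tested. Their median log2 fold change was -0.05, against 0.0031 over all genes tested. The count depended on the libraries, with 41 genes without sgControl replicate 1, 11 without sgControl replicate 2 and 13 without sgControl replicate 3. The count over all genes moved the same way, from 992 with all libraries to 3639, 603 and 812 in these fits. Both counts also fell without either sgMef2d library. The lists were chosen with earlier results of these data known, so counts per list are descriptions. Of the 19 genes, the 15 with the smallest adjusted p are named here.

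Neither ligand passed the threshold with all libraries. Igf1 was at 2.10, 1.21 and 1.61 CPM in sgControl and at 1.06 and 0.606 CPM in sgMef2d, below all sgControl libraries, with a log2 fold change of -0.99 (95% interval -1.83 to -0.15, edgeR quasi-likelihood test, adjusted p = 0.141). Igf2, named here after its values were seen, was at 3.41, 4.61 and 3.22 CPM and at 2.18 and 2.76 CPM (log2 fold change -0.60, same test, adjusted p = 0.155), and passed without sgControl replicate 1 (-0.68, adjusted p = 0.0372). Both sgMef2d libraries were below all sgControl libraries for Igf2 too, and both ligand transcripts were scarce in every library. The insulin receptor gene Insr, the other listed receptor, differed by -0.09 on the log2 scale (95% interval -0.28 to 0.10, adjusted p = 0.581) and by -0.17 without sgControl replicate 1 (adjusted p = 0.0189), Kazald1, a binding protein relative, by 0.60 (adjusted p = 0.320), and Igf2bp1, which binds Igf2 mRNA, by -0.04 (95% interval -0.19 to 0.11, adjusted p = 0.792).

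Of the 6 tested relatives that carry an IGFBP-type domain, 3 were lower and 0 higher past the threshold. Over all genes tested, 4.28% were lower and 3.67% higher. Ccn5, a secreted matricellular protein, fell from 48.8, 42.3 and 46.0 CPM in sgControl to 22.2 and 23.8 CPM in sgMef2d, a log2 fold change of -0.99 (SE 0.088, edgeR quasi-likelihood test, adjusted p = 5.89e-05). Crim1, a membrane protein that binds bone morphogenetic proteins, fell by 0.59 on the log2 scale (adjusted p = 0.00222), and Ccn2, a connective tissue growth factor, fell by 0.42 (adjusted p = 0.00245). Ccn2 did not pass without sgMef2d replicate 2 (adjusted p = 0.0837). Among 9 tested proteases of binding proteins and their inhibitors, Stc1 alone passed. Stc1, a stanniocalcin that inhibits PAPP-A, rose from 15.8, 13.97 and 16.7 CPM to 39.7 and 34.7 CPM, a log2 fold change of 1.27 (SE 0.0999, same test, adjusted p = 2.76e-05).

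Downstream of the receptor, 24 adaptors and regulators were tested, with 3 higher and 1 lower past the threshold. The shares of all genes tested, 3.67% higher and 4.28% lower, stand beside each count in this paragraph. Socs3, a feedback inhibitor of cytokine and insulin signalling, rose from 30.9, 31.5 and 24.6 CPM in sgControl to 49.4 and 46.6 CPM in sgMef2d (log2 fold change 0.72, SE 0.1001, edgeR quasi-likelihood test, adjusted p = 0.00126). Of 15 tested genes of PI3-kinase and AKT, 1 was higher and 2 were lower. Pik3r1 encodes the regulatory subunit p85-alpha, and it fell from 79.4, 96.0 and 95.9 CPM to 49.0 and 55.8 CPM (log2 fold change -0.78, SE 0.096, same test, adjusted p = 6.30e-04). Inpp4b, a phosphatase of PI3-kinase products, rose from a mean of 0.725 CPM to 2.04 CPM (log2 fold change 1.502, same test, adjusted p = 0.0211). Of 17 tested genes of mTOR and AKT substrates, only Gsk3a passed, with a log2 fold change of 0.27 (same test, adjusted p = 0.0163).

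FOXO factors are held out of the nucleus by AKT. Of 21 tested FOXO genes and FOXO targets, 2 were higher and 5 lower past the threshold, beside 3.67% and 4.28% of all genes tested. Cdkn1b, which encodes the cell cycle inhibitor p27, was at 275, 270 and 270 CPM in sgControl and at 212 and 214 CPM in sgMef2d, and fell with a log2 fold change of -0.35 (SE 0.054, edgeR quasi-likelihood test, adjusted p = 0.00254). Foxo1 itself fell with a log2 fold change of -0.34, Sesn3, a stress-induced regulator of mTOR, of -0.35, Gadd45a, a DNA damage response gene, of -0.42, and Fbxo32, a ubiquitin ligase subunit of atrophying muscle, of -0.75. Foxo6 rose with a log2 fold change of 0.55, and Txnip, an inhibitor of thioredoxin, of 0.52. In the same test these 6 genes had adjusted p values from 0.00825 to 0.0267.

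Of the 15 named pathway genes, 5 (Stc1, Ccn5, Pik3r1, Socs3 and Crim1) kept their call in all 15 alternatives. The other 10 lost it without sgMef2d replicate 2 (edgeR quasi-likelihood test, adjusted p between 0.0730 and 0.301), and 8 of them also without sgMef2d replicate 1 (between 0.0712 and 0.280), when the remaining sgMef2d library had to be assumed to vary like sgControl. Without sgControl replicate 2, the calls of Foxo1, Gadd45a, Gsk3a and Inpp4b were lost (between 0.0513 and 0.0909), and without sgControl replicate 3 those of Foxo1 and Fbxo32 (between 0.0546 and 0.0665). With DESeq2 in place of edgeR, Foxo1 did not pass (adjusted p = 0.0515).

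**Figure D5:**
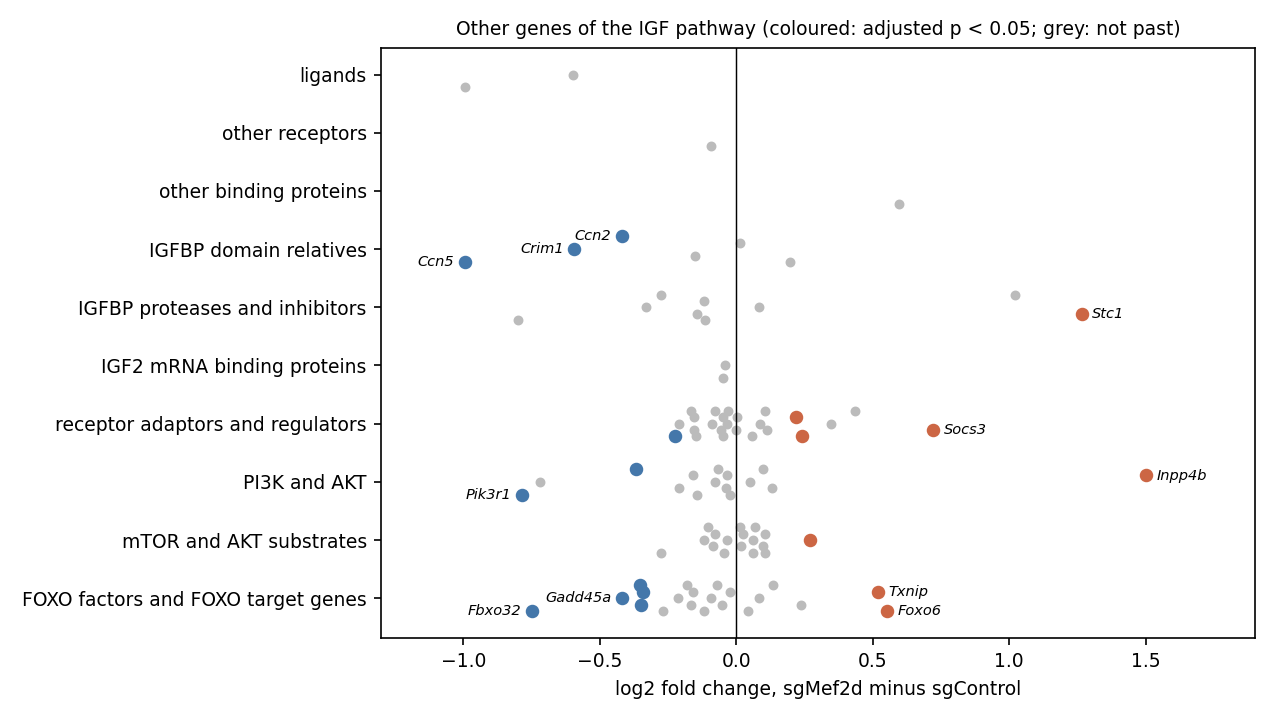
Log2 fold change (sgMef2d minus sgControl) of each tested gene in the 10 lists of the IGF pathway outside the members. Orange points were higher and blue points lower past an adjusted p of 0.05, grey points did not pass, and genes past the threshold that differed by at least 0.4 in either direction are labelled.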

How the data were processed

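Poly(A) RNA of EpH4 cells was made into libraries that mark strand and was sequenced. The authors checked reads with FASTQC, aligned them to GRCm38 with STAR and checked alignments with RSeQC, and the submitters' processing notes also name CASAVA and Subread. The deposited table holds gene counts, whole and not normalized, made by the authors after removing low-count genes, so that each listed gene had at least 11 counts in some library. Gene identifiers were matched without their version to GENCODE M21 (12934 of 12934, of which 12811 had the same version), which gave symbols, positions and exon lengths.

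The counts were scaled by TMM factors (0.996 to 1.00) and tested with the bias-adjusted quasi-likelihood method of edgeR 4.0.16 (R 4.3.3) on the 12483 genes that its expression filter kept. P-values were adjusted over all of them by Benjamini-Hochberg, with a threshold of 0.05. No replicate block was used. A prior count of 2 entered log2 CPM. The fitted intervals include both counting error and the spread of replicates; PCR duplicates cannot be seen in counts.

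Members and lists were chosen with earlier results of these data known. Named were all members, Mef2d, the pathway genes past the threshold (the 15 with the smallest adjusted p), the gene with the smallest p of lists with none, the 5 genes closest to Igfbp3 of average log2 CPM 4 or more, and the neighbours of Igfbp3. Airn and Polr2b, which overlap members, Igf2, and the cell type markers were named outside this rule, after their values were seen. Promoter motifs were chosen after the windows had been read. Alternatives were DESeq2 1.42.0, limma-voom (limma 3.58.1), other normalizations, filters and thresholds, a replicate block, removal of length and GC trends (loess, span 0.3) and leaving out each library. On simulated counts, 71 of 99 genes changed by 0.5 and 89 of 100 changed by 1 (log2) were called, and 8 of 12130 unchanged genes. Columns of per-sample values left unused numbered 0, and entries without a gene name 0.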

Additional observations from a re-analysis of the deposited data

How the results depend on the processing

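Of the members other than Igfbp3, 1 was past the threshold with all libraries, and leaving out single libraries gave 1 to 3, with Igf2r and Igfbp4 added without sgControl replicate 1. Leaving out single libraries gave 5 to 41 pathway genes (2 to 13 higher, 3 to 28 lower) and 234 to 3639 of all genes (135 to 1804 higher), the highest without sgControl replicate 1. At an adjusted p below 0.01, 9 pathway genes (3 higher, 6 lower) and 422 of all genes (203 higher) passed, and at 0.10, 1584 of all genes (739 higher). The replicate numbers of the labels did not pair the libraries, since deviations of same-numbered libraries from their group means had correlations of 0.0113 and -0.000916. A replicate block gave 2 members past the threshold, Igfbp7 and Irs1 (0.38, edgeR adjusted p = 0.0157), and 1254 of all genes. Log2 fold changes that turned were those of Igf2r under the block (0.064) and of both receptors when single libraries were left out, which gave -0.195 to 0.053 for Igf2r and -0.098 to 0.072 for Igf1r. With length and GC trends removed, Insr (0.020) and Igf2bp1 (0.0062) turned as well. The other normalizations, filters and count models kept every member on its side of the threshold. Causes were not tested. Genes at a few CPM or less, Igfbp4, Inpp4b, Kazald1, Igf1 and Igf2 among them, rest on few counts.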

Other observations

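The windows of 250 bases before the start held the letters CACGTG in 3 of the 7 listed members, Irs1, Irs2 and Igf2r, where 6.02% of all 32851 mouse promoter windows held them. The nearest 30 bases around the first match that lies wholly inside each window are printed 5′ to 3′ on the gene's strand (RefSeq, GRCm38.p6), with the motif in capitals, to show the letters around it.
Irs1 (chr1:82291537-82291566, minus strand): cagaggctccgtCACGTGttttgctcctct
Irs2 (chr8:11008956-11008985, minus strand): gtaacgcagagtCACGTGttgttttgctct
Igf2r (chr17:12769737-12769766, minus strand): gaacgaggacgtCACGTGagcaggaggcgg
The motif began 115 bases before the RefSeq start in Irs1, 44 in Irs2 and 48 in Igf2r, and Igf2r held it a second time 7 bases before that start. In these genes the RefSeq start lies upstream of the GENCODE start in the gene positions given above. For Irs2 the RefSeq and GENCODE starts are farther apart than the 250 bases of a window, so its distance holds for the RefSeq start only. None of these 3 genes passed the threshold with all libraries. The letters were chosen after the windows had been read, and a match is a description of the sequence and not a bound site.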
